A study of Mus musculus with 10 samples.

Results

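The Hox genes of the 4 mouse clusters were examined in bulk RNA-seq of lineage-depleted bone marrow. The members are all genes of the deposited count table whose symbol is Hoxa, Hoxb, Hoxc or Hoxd followed by a number, which leaves out their antisense RNAs. These were 26 of the 25178 genes in the table, with 10 from Hoxa, 7 from Hoxb, 7 from Hoxc and 2 from Hoxd. The GENCODE vM21 annotation lists 39 such genes, and the other 13 (Hoxa13, Hoxb1, Hoxb9, Hoxb13, Hoxc12, Hoxc13, Hoxd1, Hoxd3, Hoxd4, Hoxd10, Hoxd11, Hoxd12 and Hoxd13) are not analysed here. The study compared 5 males with 5 females of the inbred mouse strain C57/BL6, all at steady state with no treatment. Cells were flushed from 1 hindlimb of each mouse and depleted of mature blood cells on magnetic beads, and each mouse gave 1 library. The sources used here give neither the ages of the mice nor which antibodies were on the beads. The cells were enriched as a mixture, not sorted into defined stem or progenitor populations.

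Hox genes encode homeodomain transcription factors that give cells their position along the body axis. They lie in clusters that arose by duplication, so that genes with the same number in different clusters (paralogs) descend from 1 ancestral gene. Within a cluster, low numbers mark the genes of anterior body regions and high numbers those of posterior regions. In blood, Hoxa and Hoxb genes are known to be active in stem and early progenitor cells and to be switched off as cells mature. Hoxa9, together with its cofactor Meis1, is known for supporting stem cell growth and for driving acute leukemia, and Hoxb4 for expanding stem cells when overexpressed.

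The clusters also hold microRNA genes, whose mature sequences (RefSeq, GRCm38.p6) are shown because their genes lie among or inside the Hox genes described here and because Hox messenger RNAs are known targets of miR-196. Capitals mark the seed, bases 2 to 8, which falls into 2 groups.
mmu-miR-10a-5p: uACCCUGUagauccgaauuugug
mmu-miR-10b-5p: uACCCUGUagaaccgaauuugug
mmu-miR-196a-5p: uAGGUAGUuucauguuguuggg
mmu-miR-196b-5p: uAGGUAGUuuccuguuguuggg
The first pair shares 1 seed and the second pair another. miR-196b-5p (chromosome 6: 52230129 to 52230150, minus strand) lies within an annotated exon of Hoxa9, and miR-10a-5p (chromosome 11: 96317186 to 96317208, plus strand) lies between Hoxb5 and Hoxb4. The levels of the microRNAs were not analysed here.

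Perfect matches to the miR-196 seed (ACTACCT on the sense strand) were found in the annotated 3′ UTRs of 7 of the 26 Hox genes, namely Hoxa4, Hoxa5, Hoxa7, Hoxa9, Hoxb6, Hoxb7 and Hoxc8. Over 20939 genes with a 3′ UTR, 6.08% had such a match. For the seed of miR-10 the share was 3 of 26 Hox genes, against 12.4% of all. The median 3′ UTR was 919 bases long for the Hox genes and 939 for all. Hoxa7 had 4 matches to the miR-196 seed, shown here in capitals with the 15 bases before them since this is the Hox gene with the most matches and 1 of the highest levels.
Hoxa7 site 1: aggcacagccaaaatACTACCT
Hoxa7 site 2: gagaggcactcccaaACTACCT
Hoxa7 site 3: caaaccatgatcaatACTACCT
Hoxa7 site 4: tactactagccctaaACTACCT
Hoxb8 had no perfect seed match, but of all 26 Hox 3′ UTRs it held the window closest to the full complement of miR-196a-5p. In that window 21 of 22 bases were complementary, against at most 15 in any other Hox 3′ UTR, and the capital marks the base that was not.
Hoxb8 site: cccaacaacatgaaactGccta
Against miR-196b-5p, 20 of 22 bases of the same window were complementary. A match is a description of the letters and not evidence of binding. Hoxa7 was among the most abundant Hox transcripts in this marrow and Hoxb8 was near the limit of detection, as the values that follow show.

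All libraries were of similar depth, with 20754101 to 24759687 counts over all genes. Hox transcripts were rare: the 26 genes had 4552 counts in all 10 libraries together, 388 to 563 per library, or 0.00173% to 0.00231% of the library's counts. Levels are given as CPM, the count relative to the library's total over tested genes times its normalization factor, so that 1 count was worth 0.0391 to 0.0519 CPM. The markers of other cells differed between libraries. Summed over 6 mature neutrophil genes they were at 177 to 7980 CPM in males (highest in male replicate 1) and 234 to 839 CPM in females, and over 5 red cell genes at 9380 to 46000 and 3530 to 7650 CPM. Those of 13 mesenchymal stroma genes ran from 341 to 2530 CPM in females and from 404 to 2810 CPM in males, those of 6 endothelial genes from 37.0 to 46.4 and from 28.0 to 41.6 CPM, and those of 5 B lineage genes from 2.62 to 3.93 and from 4.01 to 19.5 CPM. The 7 stem cell genes summed to 317 to 436 CPM in females and 243 to 391 CPM in males. Most of this sum was Kit (mean 264 CPM over all mice) and Mllt3 (69.7 CPM), which is also listed among the Hox activators below. Each other stem cell gene averaged 7.82 CPM or less, so the sum says little of those genes. Of the markers of all these cell types 0 were at a count of 0 over all libraries. The red cell and B lineage sums were higher in every male than in every female. In the comparisons of the sexes these cells and sex therefore cannot be told apart. In bulk RNA, fewer cells of a type and less RNA per cell cannot be told apart.

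The Hoxa cluster on chromosome 6 held most of the signal. To compare genes, CPM was divided by the length of the gene's annotated exons, which gives CPM per kb. On this scale Hoxa genes made up 79.3% ± 1.96 (SD, n = 10 mice) of the summed Hox level, with a range of 77.0% to 83.1% over the mice. Hoxb genes (chromosome 11: 96194316 to 96368256) made up 18.2% ± 1.72, Hoxc genes (chromosome 15: 102921103 to 103036852) 2.11% ± 1.20 and Hoxd genes (chromosome 2: 74668310 to 74765142) 0.412% ± 0.438. In every mouse the order was Hoxa, Hoxb, and then Hoxc and Hoxd together. The share of Hoxa was 79.2% ± 1.82 (SD, n = 5) among females and 79.4% ± 2.31 (SD, n = 5) among males, a difference smaller than the spread within either sex.

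**Figure D1:**
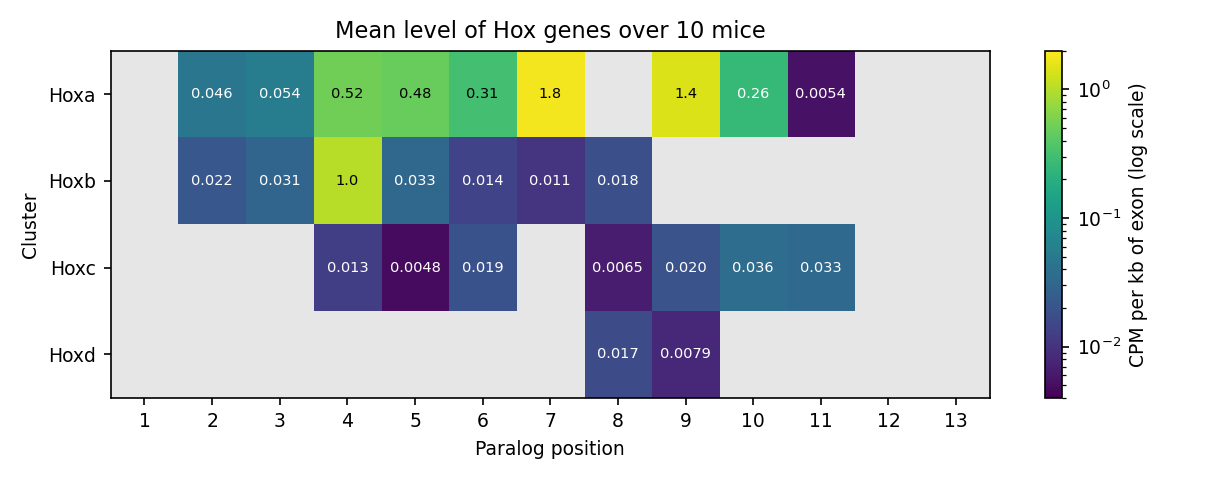
Mean level of each Hox gene over the 10 mice in CPM per kb of exon (color, log scale), by cluster (rows) and paralog position (columns); grey fields have no gene or no value shown. The highest values stand in the Hoxa row at positions 7 (1.81) and 9 (1.43) and in the Hoxb row at position 4 (1.02), and the Hoxc and Hoxd rows reach at most 0.0365.

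By paralog position the level had peaks, and the posterior end was near 0. The sums over clusters are per kb of all annotated exons. Positions 7, 4 and 9 had the highest, at 1.82 ± 0.374, 1.56 ± 0.208 and 1.46 ± 0.178 CPM per kb (SD, n = 10). The order of positions 4 and 9 depended on the length used. Per kb of the longest coding transcript Hoxa9 alone was at 2.48, against 1.02 for Hoxb4, 0.524 for Hoxa4 and 0.0153 for Hoxc4. Per kb of all exons position 5 followed at 0.514 ± 0.114, position 6 at 0.347 ± 0.206 and position 10 at 0.293 ± 0.111. Positions 2, 3, 8 and 11 were each at 0.0844 or less. At several positions 1 gene of the Hoxa cluster supplied most of the signal: Hoxa7 held 99.4% of position 7, Hoxa9 98.1% of position 9, Hoxa5 92.7% of position 5, Hoxa6 90.5% of position 6 and Hoxa10 87.6% of position 10. At positions 2 and 3 the signal was shared more evenly, with Hoxa2 at 67.9% and Hoxa3 at 63.7%. Hoxa2 had 19 counts and Hoxb2 17, and per kb of the longest coding transcript they were level (0.0456 and 0.0461). At position 4 the leading gene came from the Hoxb cluster, with Hoxb4 at 65.5% and Hoxa4 next. Position 11 was led by Hoxc11, with 16 of its 19 counts, and position 8, where Hoxa has no gene, had 26 counts split over Hoxb8, Hoxc8 and Hoxd8.

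Hoxa7 and Hoxa9 could not be put in order. Per kb of all annotated exons Hoxa7 was at 1.81 ± 0.380 and Hoxa9 at 1.43 ± 0.185 CPM per kb (SD, n = 10), with Hoxa7 higher in 8 of 10 mice. Per kb of the longest coding transcript they were at 2.59 ± 0.544 and 2.48 ± 0.320 CPM per kb, with Hoxa9 higher in 6 of 10 mice. In plain CPM Hoxa9 was higher in 10 of 10. The annotated exons of Hoxa9 sum to 5580 bases against 3226 in its longest coding transcript, and those of Hoxa7 to 2876 against 2009. Hoxb4, with 2566 bases on both measures, came next at 1.02 ± 0.234 CPM per kb, below Hoxa9 and above Hoxa4 (0.524 ± 0.115) in 10 of 10 mice each. Hoxa4 and Hoxa5 (0.476 ± 0.110) did not differ beyond their spread, with Hoxa4 higher in 6 of 10 mice, and neither did Hoxa6 (0.314 ± 0.225) and Hoxa10 (0.257 ± 0.0870). On the scale of all exons the next gene, Hoxa3 (0.0537 ± 0.0400), was below Hoxa10 in 10 of 10 mice. Per kb of the longest coding transcript Hoxa10 was at 0.327 and Hoxa6 at 0.314, and Hoxa3, at 0.125, was below Hoxa6 in 8 of 10.

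The most abundant members by count were Hoxa9, Hoxa7 and Hoxb4, which together held 79.4% of all Hox counts (72.9% to 85.0% over the libraries). With Hoxa5, Hoxa4 and Hoxa10 they were the 6 Hox genes that passed the filter on low counts and were tested between the sexes. These 6 held 92.3% of the Hox counts. Even so they were low among the 14674 genes tested, where Hoxa9 ranked 9392nd, Hoxa7 10236th and Hoxb4 11458th by mean CPM, and the others 13287th to 13410th.

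**Figure D2:**
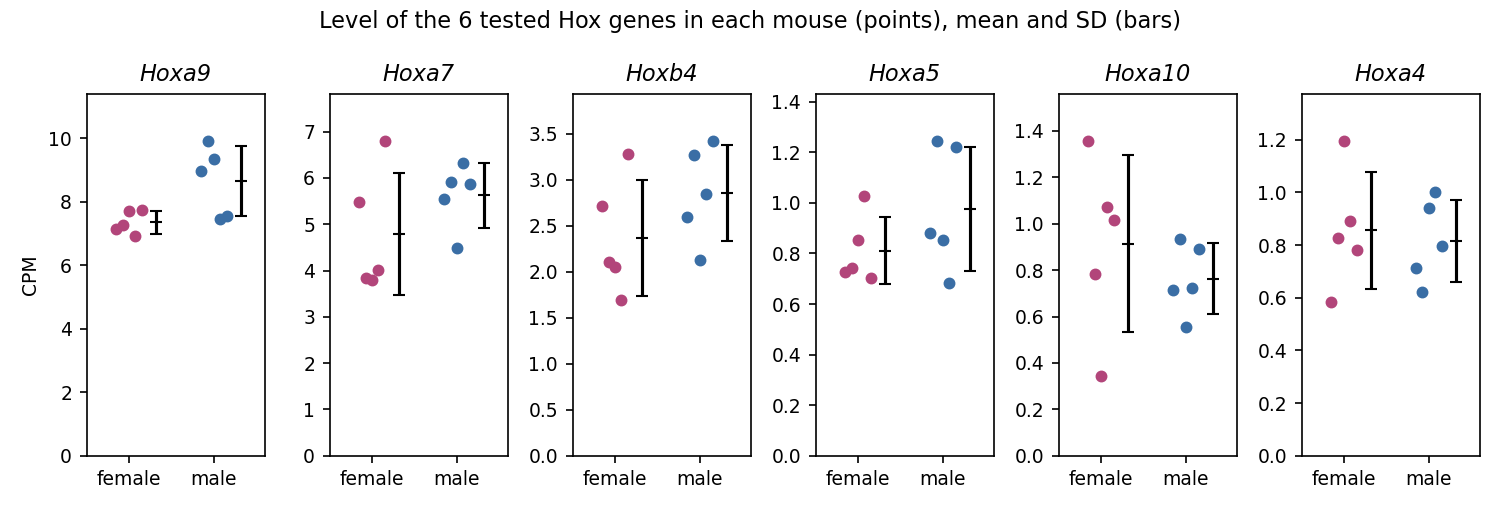
CPM of the 6 tested Hox genes in each mouse (points, 5 females and 5 males), with the mean and SD of each sex as bars; each panel has its own axis from 0. The values of the sexes overlap in all 6 genes, and for Hoxa9 males 1, 2 and 3 lie above all females while males 4 and 5 lie among them.

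Hoxa9 (chromosome 6: 52223100 to 52231089), the leukemia-associated factor named above, was at 7.13, 7.27, 7.69, 6.92 and 7.74 CPM in female replicates 1 to 5. In male replicates 1 to 5 it was at 8.98, 9.92, 9.35, 7.46 and 7.56 CPM. The females lay within 1 narrow band, while 3 males lay above every female and 2 lay inside the female range. The means were 7.35 ± 0.357 and 8.65 ± 1.10 CPM (SD, n = 5 each). The log2 fold change of females against males was -0.23 (SE 0.12, 95% interval -0.50 to 0.03), which did not pass the test over all genes (edgeR quasi-likelihood adjusted p = 0.506, unadjusted p = 0.0753). Without male replicates 1 and 2, which had the highest sums of mature neutrophil markers (7975 and 2523 CPM), the value was -0.15 (edgeR adjusted p = 0.998). Both are among the 3 males above every female, so leaving them out makes the difference smaller in itself. The value was -0.28 without male replicate 4 and -0.28 without male replicate 5. Whether neutrophils bear on the level was not tested. Male replicate 2, where Hoxa9 was highest, also had the lowest normalization factor of the libraries (0.886), and whether this bears on the level was not tested.

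Hoxa7 (chromosome 6: 52214491 to 52221854) is the neighbor of Hoxa9 and, like it, is known as a target of leukemic MLL fusion proteins. It was at 5.48, 3.84, 3.803, 4.02 and 6.81 CPM in females 1 to 5 and at 5.54, 5.92, 4.48, 6.33 and 5.87 CPM in males 1 to 5. Here the females were the more variable sex: females 2, 3 and 4 lay below every male, female 5 above every male. The log2 fold change was -0.23 (SE 0.19, 95% interval -0.65 to 0.18, edgeR adjusted p = 0.568), and -0.39 without female replicate 5. Of the exon bases of Hoxa7, 20.4% are shared with the antisense gene Hoxaas3. Without the strand setting of the counting, how far this affected its counts is not known. Exon bases were also shared with other genes for Hoxa4 (16.0%), Hoxa3 (27.1%) and Hoxb2 (27.3%).

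Hoxb4 (chromosome 11: 96318267 to 96321638), the stem cell expansion factor, was at 2.72, 2.11, 2.05, 1.70 and 3.29 CPM in females 1 to 5 and at 2.60, 3.27, 2.13, 2.85 and 3.43 CPM in males 1 to 5. Female 5 was the highest female and females 2, 3 and 4 the lowest, as for Hoxa7, and the sexes overlapped. The log2 fold change was -0.26 (SE 0.22, 95% interval -0.74 to 0.21, edgeR adjusted p = 0.568). Leaving out female replicate 5 gave -0.41, and leaving out female replicate 4 gave -0.17.

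The 3 less abundant tested genes are flanking members of the Hoxa cluster. Hoxa5 (chromosome 6: 52201754 to 52204587) was at 0.728, 0.743, 0.855, 1.03 and 0.704 CPM in females 1 to 5 and at 0.881, 1.25, 0.854, 0.682 and 1.22 CPM in males 1 to 5 (log2 fold change -0.26, 95% interval -0.80 to 0.28, adjusted p = 0.605). Without male replicate 2 it was -0.16, and without male replicate 5 it was -0.17. Hoxa4 (chromosome 6: 52189671 to 52191753) had 0.582, 0.826, 1.20, 0.893 and 0.782 CPM in females 1 to 5, against 0.713, 0.623, 0.939, 1.002 and 0.798 CPM in males (log2 fold change 0.07, 95% interval -0.49 to 0.62, adjusted p = 0.902). Its sign turned when single libraries were left out (-0.08 without female replicate 3, -0.01 without male replicate 2), so no direction is given. Hoxa10 (chromosome 6: 52231197 to 52240854), whose product regulates myeloid progenitors, had 1.36, 0.784, 0.342, 1.07 and 1.02 CPM in females 1 to 5, against 0.713, 0.935, 0.555, 0.722 and 0.892 CPM in males (log2 fold change 0.26, 95% interval -0.46 to 0.98, adjusted p = 0.694). The value became 0.08 when female replicate 1 was left out, 0.47 without female replicate 3 and 0.16 without male replicate 3. For Hoxa10 females held both the highest and the lowest value.

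Between the sexes 0 of the 6 tested Hox genes were called at an adjusted p under 0.05 (edgeR quasi-likelihood), against 0.0545% of all 14674 genes. At an unadjusted p under 0.05 it was 0 of 6, against 9.17% of all genes. DESeq2 called 0 as well, of the 9 Hox genes for which it gave an adjusted p (smallest 0.524), with 0 at an unadjusted p under 0.05. Hoxa9 had an unadjusted p under 0.05 without male replicate 4 (adjusted p = 0.332), and Hoxa7 without female replicate 5 (adjusted p = 0.633). The sexes did not overlap in 0 of 6, against 1.93% of all genes. Of the 6 fold changes 2 were above and 4 below 0, against 52% below 0 among all genes, and their median was -0.23 beside -0.01 over all genes. The upper ends of the 95% intervals leave room for differences of up to 0.98 (Hoxa10) and the lower ends down to -0.80 (Hoxa5) on the log2 scale, so equal levels are not shown.

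**Figure D3:**
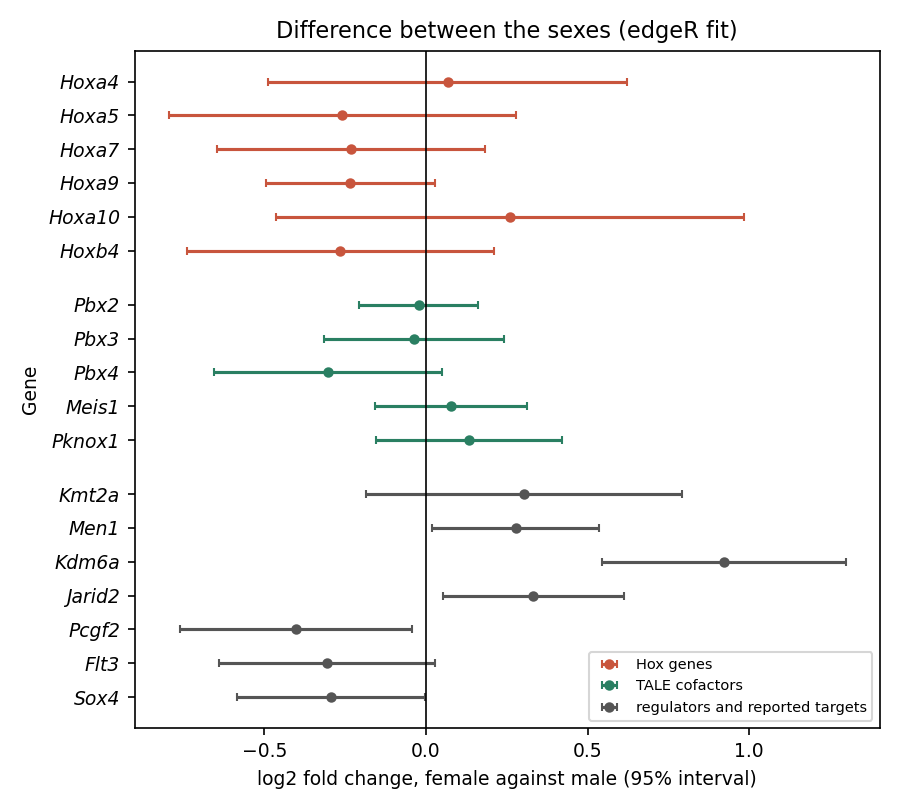
Log2 fold change of females against males with its 95% interval (edgeR fit, 5 mice per sex) for the 6 tested Hox genes, 5 of the 6 tested TALE cofactors and 7 regulators or reported targets. The intervals of all 6 Hox genes and of the 5 cofactors drawn include 0, and the largest value is that of Kdm6a (0.92). Those of Kdm6a, Men1, Jarid2, Pcgf2 and Sox4 do not include 0, and the intervals are not adjusted for the number of genes tested. Apart from Kmt2a, the 7 regulators or targets are the 2 genes of smallest p in each list, so they do not stand for their lists.

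Hoxa9 varied least between the mice. Its coefficient of variation over the 10 mice was 12.9%, where counting error alone would give 7.42%. For Hoxa7 it was 21.0% against 9.19%, and for Hoxb4 23.0% against 13%. Hoxa4 was at 21.9% against 22.8%, Hoxa5 at 23.1% against 22.3% and Hoxa10 at 33.9% against 23.0%. The observed spread of Hoxa4 and Hoxa5 was thus close to that of counting alone, which does not show that the mice did not differ, and edgeR's biological coefficient of variation for them was 22.2% and 21.7%. That estimate had a median of 22% over the 6 genes and 18.9% over all genes tested. Counting error assumes independent molecules, and PCR copies were not told apart.

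**Figure D4:**
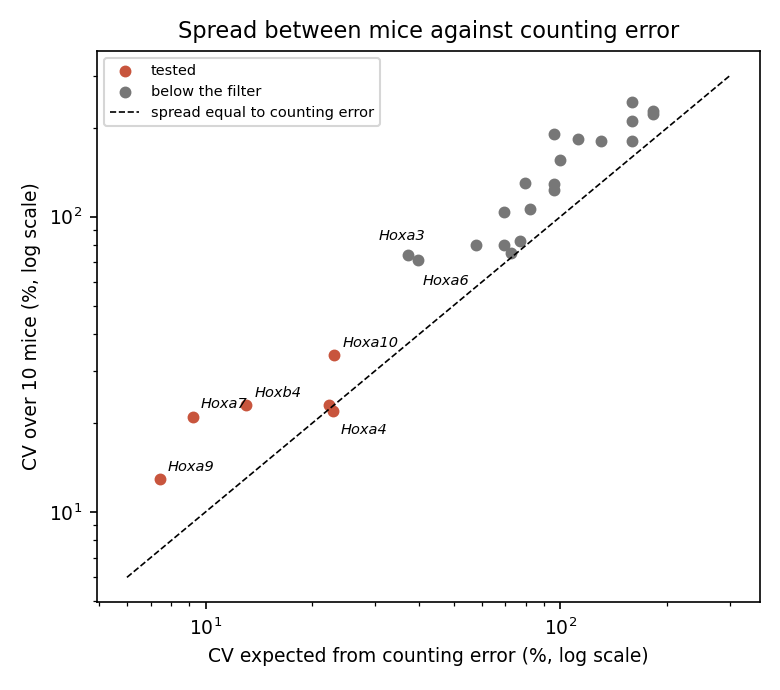
Coefficient of variation (CV) of each of the 26 Hox genes over the 10 mice (y axis, %, log scale) against the CV that counting error alone would give (x axis, %, log scale). Hoxa4 and Hoxa5 lie on the dashed line of equality, and Hoxa9, Hoxa7, Hoxb4 and Hoxa10 lie above it.

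The other 20 Hox genes had too few counts to be tested, from 3 (Hoxa11 and Hoxc5) to 73 (Hoxa3) over all 10 libraries and 351 together. The most abundant of them, Hoxa3, had 7, 3, 9, 3 and 9 counts in females 1 to 5 and 7, 5, 2, 8 and 20 in males 1 to 5, so that male replicate 5 held 20 of the 42 male counts. Hoxa6 had 44 in females and 20 in males, a female to male ratio of 2.14 (95% counting interval 1.23 to 3.82). This interval covers counting error only, and the mice varied by more (coefficient of variation 71.6%, where counting error gives 39.7%). Without a filter on low counts edgeR gave Hoxa6 an adjusted p of 0.522. The counts of Hoxa6 were 6, 7, 16, 5 and 10 in females 1 to 5 and 8, 0, 0, 5 and 7 in males 1 to 5. The difference thus came with 2 males that had no read of the gene, where 0 counts allow up to 0.156 CPM in male replicate 2 and 0.128 CPM in male replicate 3, and the other 3 males lay within the female range of counts.

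The anterior genes of the Hoxa and Hoxb clusters, which pattern the hindbrain and neck in the embryo, were detected at a low level. Hoxa2 had 19 counts, Hoxb2 17, Hoxb3 30 and Hoxb5 21. Hoxb5, which is known as a marker of long-term stem cells, had reads in 6 of 10 mice, 3 of each sex. Hoxb3, just 3′ of Hoxb4 in the cluster, had reads in 8 of 10 mice and 0 in male replicates 2 and 3, the same libraries in which Hoxa6 was at 0. Of the exon bases of Hoxb3, 52.9% are shared with the antisense gene Hoxb3os, the largest such share among the Hox genes of the table. Hoxb3os itself had 3 counts.

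The middle Hoxb genes were at the edge of detection. Hoxb6 had 6 counts and Hoxb7 4. Hoxb8, the gene with the site closest to the complement of miR-196a, had 11 counts, of which 1, 5 and 5 were in females 2, 3 and 4 and 0 in the other 2 females and in all 5 males. The exact 95% counting interval of the ratio of females to males began at 2.44, and the spread between mice was larger than counting error (coefficient of variation 190% against 95.7%). The difference did not pass the test over all genes (edgeR without a filter on low counts: unadjusted p = 0.0160, adjusted p = 0.522). Hoxb7 and Hoxc8 also had counts only in females, 4 each.

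The Hoxc and Hoxd genes, which in the embryo act in the trunk, limbs and tail, gave 67 and 15 counts in all. Per library, the Hoxc and Hoxd genes together had 3 to 14 counts. Hoxc11 had 16, Hoxc10 15, Hoxc9 11, Hoxc6 10, Hoxc4 8, Hoxc8 4 and Hoxc5 3, and Hoxd8 had 11 and Hoxd9 4. Hoxc6 leaned the other way from Hoxb8, with 2 counts in females and 8 in males (ratio 0.243, 95% counting interval 0.0251 to 1.22). Mesenchymal cells of the hindlimb are known to express posterior Hox genes, and the stroma markers varied between libraries as given above. The markers did not move together. Male replicate 5 had the highest sum (2815 CPM), of which most was Col1a1 and Col1a2, the lowest Cxcl12 (23.0 CPM) and 3 counts of Hoxc and Hoxd genes. Female replicate 4 had the lowest sum (341 CPM), the highest Cxcl12 (133.7 CPM) and 12 such counts. Male replicate 1, with the most such counts (14), had 114 CPM of Cxcl12. Female replicate 3 had 53.6 CPM of Cxcl12 and 3 such counts, and female replicate 2 had 43.9 CPM and 11. These libraries and genes were singled out after their values were seen. Whether stroma contributed to these counts was not tested.

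**Figure D5:**
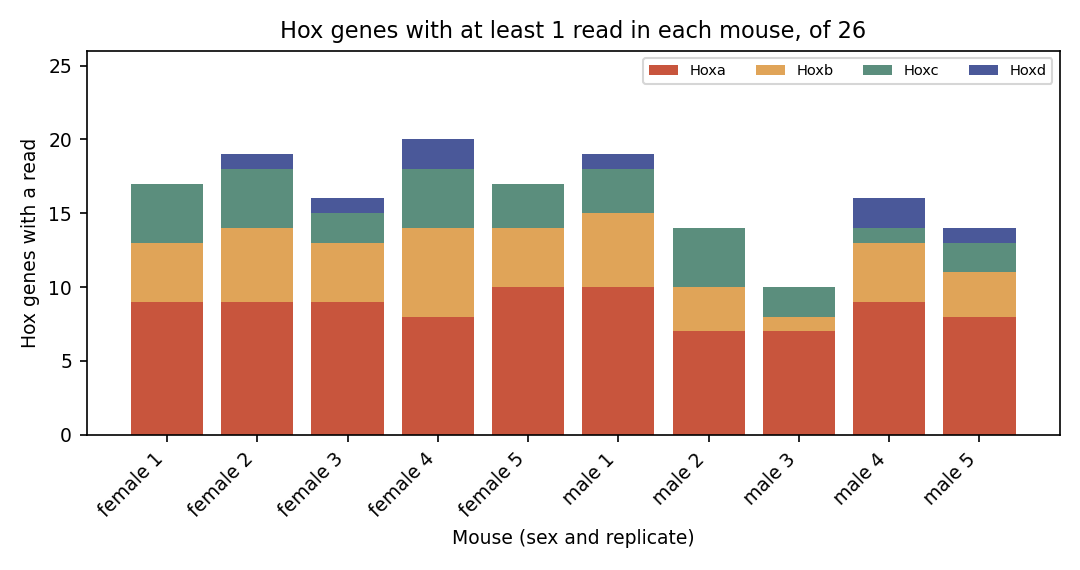
Number of the 26 Hox genes with at least 1 read in each mouse (bar height), split by cluster (color). Male replicate 3 has 10 genes with a read, and the other 9 mice have 14 to 20.

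Male replicate 3 stood out by how few Hox genes it showed. It had a read of 10 Hox genes, while the other libraries had 14 to 20, although its total of 23378166 counts was in the middle of the range. Of the 20 untested genes 4 had a read there, with 11 counts, against 8 to 14 genes and 25 to 49 counts in the other libraries. Its tested genes were mixed. Hoxa9 (9.35 CPM) was the second highest of the 10 mice, Hoxa7 (4.48 CPM) and Hoxb4 (2.13 CPM) were the lowest of the males, and Hoxa10 (0.555 CPM) was the second lowest of all. The summed Hoxb level of this library, 0.832 CPM per kb, was the lowest of the 10.

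Of the RNAs that share the clusters with the Hox genes, 6 of 15 listed had counts. Hotairm1, an antisense RNA of the Hoxa cluster, had 22 counts in females and 25 in males. Hoxaas3, which overlaps Hoxa7 and Hoxa3 on the other strand, had 2, 4, 6, 7 and 6 counts in females and 15, 27, 13, 14 and 6 in males. The male counts lay above all female counts except in male replicate 5. The ratio of females to males was 0.323 (95% counting interval 0.197 to 0.515), and edgeR without a filter on low counts gave an unadjusted p of 0.00270 and an adjusted p of 0.522. Hoxaas2 had 7 counts, Hoxb5os 4, Hoxb3os 3 and Hoxa11os 2.

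Hox proteins bind DNA together with TALE homeodomain cofactors of the Pbx, Meis and Pknox families. Of the 9 listed genes 6 were tested and 0 were called, with 3 fold changes above and 3 below 0 (median log2 0.03, and -0.04 without male replicates 1 and 2). Meis1, the partner of Hoxa9 in leukemia, was at 13.4 to 16.3 CPM in females (median 15.3) and at 11.8, 13.7, 14.9, 15.2 and 16.0 CPM in males 2, 1, 3, 4 and 5. Its means were 15.1 ± 1.08 and 14.3 ± 1.63 CPM (SD, n = 5 each; edgeR log2 fold change 0.08, 95% interval -0.16 to 0.31, adjusted p = 0.722). Pbx4 (log2 fold change -0.30, unadjusted p = 0.0847) and Pknox1 (0.13, unadjusted p = 0.331) had the smallest p of the family. Meis2, Meis3 and Pknox2 had 20, 49 and 30 counts and were not tested.

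Hox clusters are kept active by the MLL and MOZ chromatin complexes and silenced by Polycomb complexes. Of 17 tested activator genes 0 were called, and 14 had a positive and 3 a negative value. Their median log2 was 0.19, beside -0.01 over all genes, of which 52% were below 0. In 11 of the 17 the lowest 2 values of the 10 mice were those of male replicates 1 and 2, the libraries with the highest mature neutrophil and red cell markers. The share of all tested genes with this pattern was not computed, so it is not shown to be particular to activator genes. Without these libraries, left out after the values were seen, 12 values were positive and 5 negative, with a median of 0.03. Leaving out the lowest male values lowers the fold change in itself, so this shift says nothing of its cause. The males that were left still had higher red cell sums (9380 CPM or more) than every female (7650 CPM or less). The part of other cells in this was not tested. Kmt2a, which encodes MLL, was at 52.9, 53.7, 49.2, 28.8 and 52.7 CPM in females 1 to 5 and at 25.6, 26.7, 39.8, 50.5 and 49.7 CPM in males 1 to 5. Males 1 and 2 and female 4 were thus low, and the sexes overlapped (edgeR log2 fold change 0.30, 95% interval -0.19 to 0.79, adjusted p = 0.536). The X-linked histone demethylase gene Kdm6a escapes X inactivation. It was the 1 activator gene of 17 whose sexes did not overlap, against 1.93% of all genes. Its mean was 57.0 ± 4.28 CPM over females and 30.1 ± 7.91 CPM over males (log2 fold change 0.92, edgeR adjusted p = 0.193). Without male replicates 1 and 2 Kdm6a was called (log2 fold change 0.74, edgeR adjusted p = 0.0032), the 1 activator gene that was. Men1, whose product menin tethers MLL to Hox genes, had a log2 fold change of 0.28 (adjusted p = 0.506).

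Of 23 tested Polycomb genes 0 were called, with 14 positive and 9 negative values (median log2 0.04), where 52% of all genes were below 0. Without male replicates 1 and 2, whose values were the lowest 2 in 9 of these genes, 12 were positive and 11 negative (median 0.0035). Here too the share of all genes with this pattern was not computed, and leaving out low male values lowers the fold change in itself. The members with the smallest p were Jarid2, a partner of the H3K27 methyltransferase complex, with means of 64.1 ± 5.30 CPM over females and 50.9 ± 9.30 CPM over males (log2 fold change 0.33, edgeR adjusted p = 0.506), and Pcgf2, with 2.49 ± 0.283 and 3.30 ± 0.462 CPM (-0.40, adjusted p = 0.506). Of 10 genes reported as targets of Hoxa9 or Meis1, 0 were called. They had 3 positive and 7 negative values (median log2 -0.05), against 52% of all genes below 0. Sox4 averaged 46.4 ± 8.002 CPM over females and 57.0 ± 7.73 CPM over males (log2 fold change -0.29, edgeR adjusted p = 0.506), and the cytokine receptor gene Flt3 averaged 33.8 ± 6.98 and 41.8 ± 6.54 CPM (-0.31, adjusted p = 0.506). The 3 Cdx genes, upstream regulators of Hox genes in the embryo, are not analysed here.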

How the data were processed

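The authors deposited raw read counts per Ensembl gene for 10 libraries, and the submitters' processing notes name STAR, featureCounts, DESeq, GRCm38.p6 and mm10 and give no tool versions. Neither the strand setting nor the annotation release of the counting is given in the sources used here. A deposited table of normalized values was not used. The table holds genes with at least 2 counts in all. The Hox genes and the other lists were chosen with earlier results of these data known.

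The filter filterByExpr (minimum count of 10, grouped by sex) left 14674 genes, whose libraries were scaled by TMM. A robust quasi-likelihood fit (edgeR 4.0.16, R 4.3.3) had sex as its only term and ran on all these genes, after a check of the script on simulated data. P-values were adjusted by Benjamini-Hochberg over the whole table, with calls at 0.05. The SE is the fold change divided by the square root of F, and the 95% interval uses the fit's degrees of freedom. Count ratios of untested genes have exact 95% intervals conditional on the sum, which cover counting error only. Coordinates, exon lengths and 3′ UTRs (longest coding transcript) are from GENCODE vM21 (GRCm38), in which 25116 of 25178 genes were found. Overlapping exons were computed on both strands.

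All Hox genes are counted in the totals; the separate values of 1 Hox gene and 1 cofactor gene are not reported here. Values in every mouse are given for the 8 Hox genes of highest mean CPM (as counts for the 2 untested ones), and, from the other lists, Meis1, Kmt2a, the members whose sexes did not overlap and the 2 of smallest p are named; other genes were named after their values were seen. Alternatives were the DESeq2 1.42.0 Wald test, DESeq2 size factors, 2 other filters, the replicate number as a block, and leaving out libraries.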

Additional observations from a re-analysis of the deposited data

Results flagged for a closer look

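Of 16 groups of 5 mice examined for a single mouse far from the others (the 6 tested Hox genes, Meis1 and Kmt2a, in each sex), 1 had such a mouse, and chance alone gives about 1 in 20. Kmt2a was at 28.8 CPM in female replicate 4, while the other 4 females lay between 49.2 and 53.7 CPM. In the same mouse Hoxa9 (6.92 CPM) and Hoxb4 (1.70 CPM) had their lowest values of all 10 mice, while Hoxa5 (1.03 CPM) was the highest of the females, Hoxa10 (1.07 CPM) the second highest of all mice and Hoxa4 (0.893 CPM) above the median. Males 1 and 2 had still lower values of Kmt2a (25.6 and 26.7 CPM), with Hoxa9 at 8.98 and 9.92 CPM.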

How the results depend on the processing

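The count of Hox genes called stayed at 0 under all 16 alternatives, and of 93 recomputed fold changes of single Hox genes 90 kept their sign. The 3 that did not belong to Hoxa4 (-0.01 without male replicate 2, -0.08 without female replicate 3 and -0.10 without male replicates 1 and 2). Over all genes, 8 were called, against 60 by DESeq2, 6 to 10 with 1 library left out and 12 without male replicates 1 and 2. The replicate number as a block gave 5 calls, of which 0 were Hox genes (Hoxa9 -0.23, edgeR adjusted p = 0.637). Mice with the same number did not deviate together (correlation of deviations across genes -0.30 to -0.01). Mice with different numbers were not compared, so this cannot decide whether the numbers pair the mice. Leaving out male replicates 1 and 2, an alternative for the gene lists chosen after seeing the data, moved the median log2 fold change of the Hox activators from 0.19 to 0.03 and that of the TALE cofactors from 0.03 to -0.04. The Hoxa share of 79.3% became 83.2% in plain CPM and 83.5% per kb of the longest coding transcript, and 78.9% to 79.6% with 1 library left out. The ratio of Hoxa9 to Hoxa7 levels, examined after seeing the data, was 0.821 per kb of exon, 0.992 per kb of the longest transcript and 1.59 in plain CPM. With 3 to 73 counts per gene, depth limits what can be said of the 20 untested Hox genes.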
